A study of Homo sapiens with 5 samples.

Results

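PANC1, a human line grown from a carcinoma of the pancreatic duct, was set against HPDE, a line of immortalised pancreatic duct epithelium, gene by gene on expression arrays. The comparison used 2 of the 5 arrays of the series, the sample titled PANC1 and the sample titled HPDE, chosen by title. The other arrays held HPAF1, SU86.86 and L3.6, also carcinoma lines, and served here to tell what PANC1 had on its own from what it had in common with them. Each line was 1 culture on 1 array, grown untreated under the conditions its repository recommends, and total RNA was labelled with biotin. The labels give no genotype, passage or age of a culture, and their source field calls all 5 lines cancer lines, HPDE included. Lines known as HPDE were made by bringing papillomavirus oncogenes into duct cells, which is background and is not in the labels. With 1 array a line there was no replicate culture, so differences are given by size, with no p-value.

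The pancreatic duct is lined by a simple epithelium whose cells are held together by E-cadherin and desmosomes, keep an apical and a basal face, and carry the keratins KRT7, KRT8, KRT18 and KRT19. Carcinoma cells of the duct can give up part of this programme and express vimentin, N-cadherin and repressors of the SNAI and ZEB families, which bind the E-box letters CAGGTG in the promoters of epithelial genes. Interferons act on a separate set of genes through a promoter element, the ISRE, that binds complexes of STAT and IRF proteins.

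The deposited values were linear probe set intensities. Levels were taken as log2(intensity + 71.12), where the constant is the lower quartile (25th percentile) of positive intensities, so a difference of 1 is a 2-fold change of the shifted value and the fold of a dim gene is understated. A gene was represented by the probe set with the highest mean over the 5 arrays. Of 19775 genes with a probe set of 1 symbol, 13854 reached an intensity of 140.34, the median over the probe sets, in PANC1 or HPDE, and 5921 did not. A value below that limit is called near background. Array medians lay between 137.44 and 143.2. On 18 spike-in probe sets of the array's maker the median standard deviation between the 5 arrays was 0.086 on the log2 scale and the largest 0.14, and PANC1 minus HPDE ran from -0.27 to -0.085. This spread covers hybridisation and scanning and leaves out culture, harvest and labelling. The signal ratio of the 3′ to the 5′ probe set of ACTB, a sign of RNA or labelling quality, was 1.11 in PANC1 and 1.34 in HPDE, and that of GAPDH was 1.04 in PANC1 and 1.02 in HPDE. The part of these gaps in the differences below was not tested.

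Of the 13854 genes, 1260 (9.09%) were at least 2-fold higher in PANC1 than in HPDE and 1374 (9.92%) at least 2-fold lower. The median difference was 0.025 and the median absolute difference 0.36, so most genes stood close to equal. Differences of 4-fold or more were found for 358 genes higher and 414 lower in PANC1, and of 16-fold or more for 26 higher and 69 lower. The far end of the comparison was therefore longer on the side of genes low in PANC1. Because whole cultures were measured, fewer expressing cells and less RNA per cell cannot be told apart.

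The gene highest in PANC1 over HPDE was VIM, the intermediate filament of mesenchymal cells, with an intensity of 27257 in PANC1, 14591 in L3.6, 663 in HPAF1, 6637 in SU86.86 and 188 in HPDE. PANC1 had the highest value and HPDE the lowest, a difference of 6.72, which was 0.82 on the gene's other probe set. Next came AGR2, a disulfide isomerase of mucus-secreting cells (5.95), the calcium channel ITPR2 (5.76), the kinase scaffold AKAP12 (5.67), PPP1R14A, an inhibitor of myosin phosphatase (5.60), and the tetraspan surface antigen TM4SF1 (5.41). VIM, AGR2, AKAP12 and TM4SF1 were at least 2-fold above HPDE in every carcinoma line. At the low end stood IFI27, an interferon-induced mitochondrial protein, with 70.2 in PANC1, 75.1 in L3.6, 18718 in HPAF1, 3766 in SU86.86 and 14846 in HPDE, a difference of -6.72. PANC1 and L3.6 were both near background for IFI27, while HPAF1 was above HPDE. The other genes at this end were CSTA, a protease inhibitor of the cornified envelope (-6.65), the calcium-binding S100A14 (-6.57), the basal keratins KRT5 (-6.53) and KRT14 (-6.45), and TXNIP, the inhibitor of thioredoxin (-6.33). CSTA, KRT5, KRT14 and TXNIP were at least 2-fold below HPDE in every carcinoma line.

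**Figure D1:**
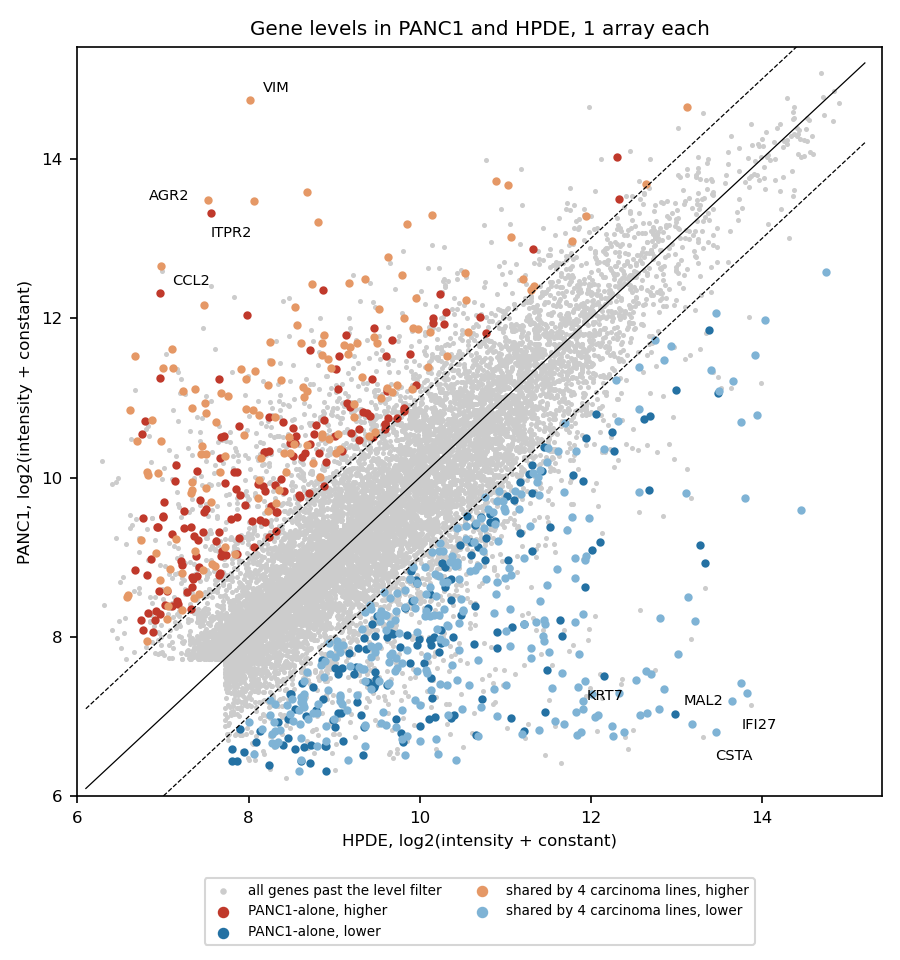
Levels of the 13854 genes past the level filter, log2(intensity + 71.12), in PANC1 (vertical axis) and HPDE (horizontal axis), 1 point a gene and 1 array a line. The solid line marks equal levels and the dashed lines 2-fold apart, and VIM, AGR2, ITPR2 and CCL2 lie far above them while KRT7, MAL2, CSTA and IFI27 lie far below.

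To separate what PANC1 did not share, a gene was called PANC1-alone when PANC1 was at least 2-fold from HPDE, at least 2-fold the same way from each of HPAF1, SU86.86 and L3.6, and none of those was 2-fold from HPDE in that direction. There were 151 such genes higher in PANC1, 1.09% of the genes past the filter, and 156 lower, 1.13%. They were 151 of the 1260 higher and 156 of the 1374 lower genes. In contrast, 144 genes (1.04%) were higher and 298 (2.15%) lower than HPDE by 2-fold in all 4 carcinoma lines, differences that share the HPDE array. The PANC1-alone counts depended on which lines PANC1 was set apart from. Without SU86.86 the higher count was 308, and without L3.6 it was 231 higher and 275 lower. In terms of size alone, PANC1 was 2-fold beyond all 4 other arrays for 215 genes on the higher side and 238 on the lower.

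The higher PANC1-alone genes had a median difference of 1.67, and 48 of them reached 4-fold. The lower ones had a median of -1.90, and 69 reached 4-fold. These sizes come from the values that chose the genes. For 61 of the 151 higher genes HPDE lay below the level limit, and for 71 of the 156 lower genes PANC1 did, so their size depends on the added constant. At the edge of the class, IGFBPL1 was just inside at 1.00 and MRC2 just outside at 0.98, and on the lower side PLPBP was inside at -1.05 and MISP outside at -0.98. Of the 307 genes, 142 had more than 1 probe set past the limit, all of them 2-fold apart the same way for 67, while 50 rested on 1 and 13 had a probe set with the opposite sign.

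Of the 15 higher PANC1-alone genes with the largest differences, the first described here is a calcium channel. ITPR2, an inositol trisphosphate receptor that releases calcium from the endoplasmic reticulum, had an intensity of 10122 in PANC1, 161 in L3.6, 179.9 in HPAF1, 136 in SU86.86 and 117 in HPDE. PANC1 was far from a tight group of the other lines, yet the difference of 5.76 was that of 1 of 3 probe sets past the limit, and another gave 0.44. CCL2, the chemokine that draws monocytes, had 5029 in PANC1, 64.0 in L3.6, 57.0 in HPAF1, 50.1 in SU86.86 and 53.6 in HPDE, and the 4 other arrays were all near background. Its difference was 5.35. CA8, a relative of the carbonic anhydrases that lacks their enzyme activity, had 1599.6 in PANC1, 55.9 in L3.6, 31.2 in HPAF1, 131 in SU86.86 and 39.7 in HPDE. For CA8 every line but PANC1 was below the level limit. IL17RB, an interleukin receptor subunit of epithelial and immune cells, had 1526 in PANC1, 327 in L3.6, 195 in HPAF1, 299 in SU86.86 and 166 in HPDE, a difference of 2.75.

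Others of these 15 act on RNA, lipids or proteins. RBM24, a splicing regulator of muscle, read 2365 in PANC1, 58.2 in L3.6, 75.5 in HPAF1, 82.2 in SU86.86 and 53.4 in HPDE (4.29). P3H2, which hydroxylates proline in collagen, read 4153 in PANC1, 398 in L3.6, 149 in HPAF1, 284 in SU86.86 and 182 in HPDE. PANC1 was the highest for P3H2 by a wide margin on this probe set (4.06), while the other probe set gave -0.0555. ELOVL2, which lengthens polyunsaturated fatty acids, had 1423 in PANC1, against 37.6 to 105 in the other carcinoma lines and 37.2 in HPDE. ANPEP, a surface aminopeptidase, had 1068 in PANC1, against 72.3 to 93.9 in the other carcinoma lines and 71.2 in HPDE. Its difference of 3.0 became -0.26 when probe sets that can match several transcripts were left out. DDX43, a helicase best known from testis and tumours, had 651 in PANC1, against 38.4 to 44.8 in the other carcinoma lines and 38.0 in HPDE, and TRIM6, a ubiquitin ligase, had 2330.3 in PANC1, against 120.4 to 226 in the other carcinoma lines and 129.7 in HPDE. For ELOVL2, ANPEP and DDX43 the other 4 arrays were all below the level limit.

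BMP6, a bone morphogenetic protein, had 926 in PANC1, 83.6 in L3.6, 72.3 in HPAF1, 67.7 in SU86.86 and 69.6 in HPDE, with all arrays but PANC1 near background (2.82). LTBP1, which holds latent TGF-beta in the matrix, had 1393 in PANC1, 260.0 in L3.6, 271 in HPAF1, 227 in SU86.86 and 139 in HPDE, and HPDE was the lowest of the 5 (2.80). DLL3, an inhibitory ligand of the Notch pathway, had 3042 in PANC1, 207 in L3.6, 202 in HPAF1, 172 in SU86.86 and 349 in HPDE. The difference of 2.89 was again that of 1 of 4 probe sets, the smallest being 0.18. RFLNB, a partner of filamin that shapes actin, had 5170.2 in PANC1, 389 in L3.6, 116 in HPAF1, 382 in SU86.86 and 396 in HPDE, with HPAF1 below the rest. EID2B, of a family that inhibits the acetyltransferase EP300, had 1391 in PANC1, against 39.0 to 256 in the other carcinoma lines and 133 in HPDE, a difference of 2.84.

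ZEB1, the repressor of CDH1 and other epithelial genes, had 523 in PANC1, 184 in L3.6, 115 in HPAF1, 115 in SU86.86 and 98.7 in HPDE, and its 3 probe sets past the limit differed by 1.81 to 3.16. PANC1 alone was well above background for ZEB1, with L3.6 next. FOXA2, a factor of endoderm and its derivatives, had 1622 in PANC1, 165 in L3.6, 607 in HPAF1, 399.8 in SU86.86 and 400.5 in HPDE (1.84). HOXC9 had 434 in PANC1, against 70.9 to 159.7 in the other carcinoma lines and 45.5 in HPDE, and HMOX1, the haem oxygenase induced by oxidative stress, had 1004 in PANC1, against 146 to 260.2 in the other carcinoma lines and 157 in HPDE. FOXC2, a mesenchymal forkhead factor, is named here after its values were seen, with 769 in PANC1, against 111 to 149 in the other carcinoma lines and 102 in HPDE, a difference of 2.28 on 1 of 2 probe sets.

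**Figure D2:**
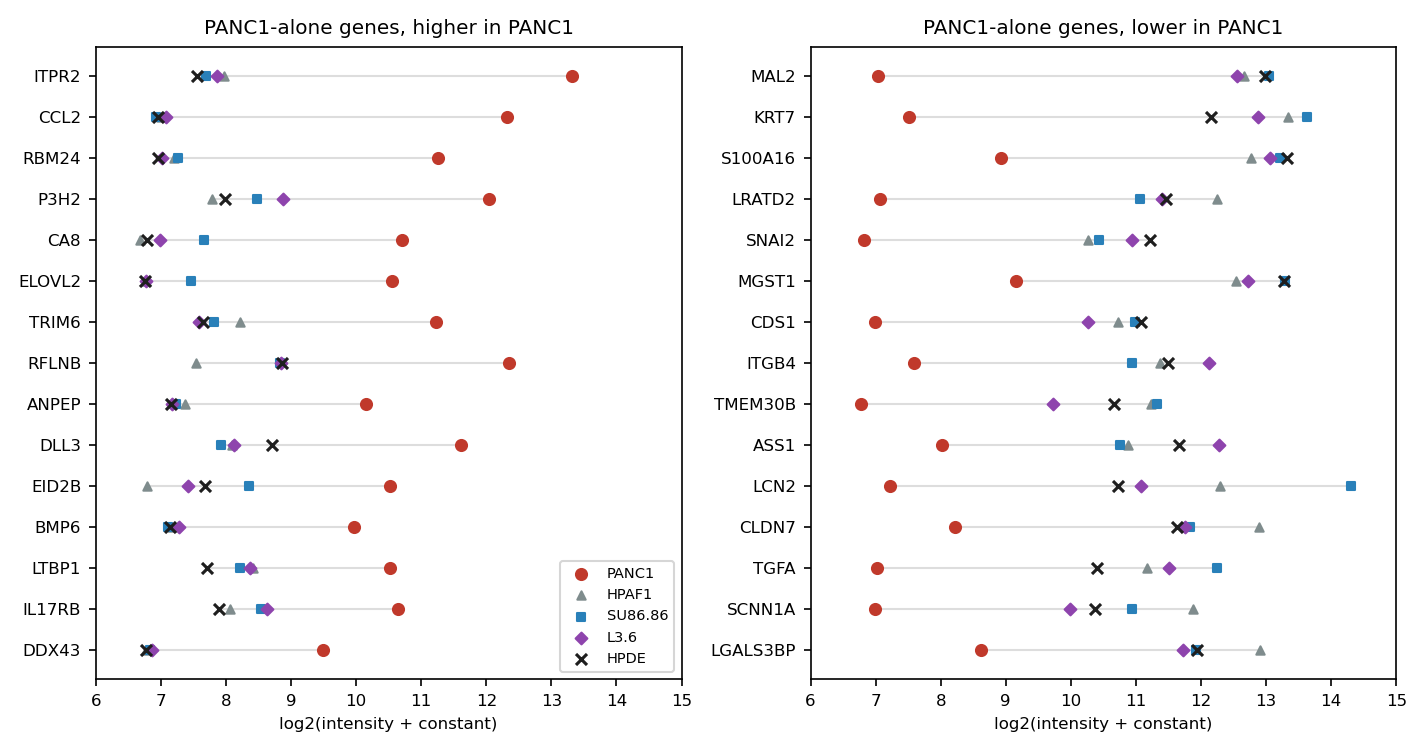
Level, log2(intensity + 71.12), of the 15 PANC1-alone genes with the highest (left) and the 15 with the lowest (right) PANC1 minus HPDE, 1 array a line. PANC1 (red circle) lies apart from HPAF1, SU86.86, L3.6 and HPDE in every row, by construction, and the other lines spread most for LCN2, from 1624 in HPDE to 20247 in SU86.86.

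Of the lower PANC1-alone genes MAL2 had the largest difference. MAL2, which carries cargo to the apical membrane, had 59.6 in PANC1, 5944 in L3.6, 6383 in HPAF1, 8349 in SU86.86 and 8044 in HPDE, at background in PANC1 and within a narrow range elsewhere (-5.96). CLDN7, a claudin of tight junctions, had 227 in PANC1, 3387 in L3.6, 7538 in HPAF1, 3571 in SU86.86 and 3107 in HPDE (-3.42). SCNN1A, a subunit of the epithelial sodium channel, had 55.9 in PANC1, 940.4 in L3.6, 3703 in HPAF1, 1893 in SU86.86 and 1252 in HPDE. That difference of -3.38 held for 1 of 3 probe sets, and the other two had the opposite sign, up to 0.19. TMEM30B, a subunit of lipid flippases, had 38.3 in PANC1, 773 in L3.6, 2320.0 in HPAF1, 2480.1 in SU86.86 and 1546 in HPDE, and CDS1, which makes CDP-diacylglycerol, had 55.6 in PANC1, 1156 in L3.6, 1625 in HPAF1, 1956 in SU86.86 and 2081 in HPDE. In both genes PANC1 was below the level limit and the other lines well above it.

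KRT7 and KRT19, keratins of duct cells, and ITGB4, an integrin of hemidesmosomes, were also in the class. KRT7 had an intensity of 111 in PANC1, 7470.1 in L3.6, 10306 in HPAF1, 12541 in SU86.86 and 4486 in HPDE, with HPDE the lowest of the lines that had it. Of the 3 KRT7 probe sets past the limit only the one used was 2-fold lower, at -4.64, and another gave -0.069. KRT19 had 847 in PANC1, 10749 in L3.6, 20372 in HPAF1, 11710.3 in SU86.86 and 6461 in HPDE, so PANC1 kept a clear signal that was lower than in any other line (-2.83). ITGB4, which anchors epithelial cells to laminin, had 122 in PANC1, 4385 in L3.6, 2568 in HPAF1, 1891 in SU86.86 and 2807 in HPDE. Its 3 probe sets past the limit were all 2-fold lower, whereas the gene's probe set without a suffix for several transcripts, which was dim, gave -0.030. S100A16, a calcium-binding protein, had 414 in PANC1, against 6928 to 9426 in the other carcinoma lines and 10214 in HPDE.

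SNAI2, a repressor of the SNAI family, was PANC1-alone on the lower side, with 42.1 in PANC1, 1899 in L3.6, 1156 in HPAF1, 1311 in SU86.86 and 2308 in HPDE. It was at background in PANC1 and highest in HPDE, a difference of -4.39. ZEB1 and SNAI2, both repressors of epithelial genes, thus stood on opposite sides of the class, ZEB1 on the higher and SNAI2 on the lower.

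LCN2, an iron-carrier binding protein of the neutrophil and inflamed epithelium, had 77.9 in PANC1, 2089 in L3.6, 4918 in HPAF1, 20247 in SU86.86 and 1624 in HPDE (-3.51). TGFA, a ligand of the EGF receptor, had 58.3 in PANC1, 2833 in L3.6, 2233 in HPAF1, 4757 in SU86.86 and 1286 in HPDE (-3.39), and the smallest difference of its 3 probe sets was -0.94. LGALS3BP, a secreted partner of galectins, had 323 in PANC1, against 3305 to 7607 in the other carcinoma lines and 3835 in HPDE. MGST1, a membrane glutathione transferase, had 499 in PANC1, 6704 in L3.6, 5888 in HPAF1, 9989 in SU86.86 and 9812 in HPDE, and PANC1 kept a moderate signal (-4.11). ASS1, which makes argininosuccinate on the way to arginine, had 188 in PANC1, 4899 in L3.6, 1817 in HPAF1, 1654 in SU86.86 and 3165 in HPDE, with L3.6 the highest (-3.64). LRATD2 had 62.4 in PANC1, against 2056 to 4765 in the other carcinoma lines and 2742 in HPDE, with a second probe set at -0.44.

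SMARCA4, the ATPase of SWI/SNF chromatin remodelling complexes, is named here after its values were seen. It had 185 in PANC1, 1448 in L3.6, 1376 in HPAF1, 2058 in SU86.86 and 1271 in HPDE, a difference of -2.39, and 5 of its 7 probe sets past the limit were at least 2-fold lower in PANC1, ranging from -2.71 to -0.018. The other carcinoma lines all lay at or above HPDE.

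Gene lists put these genes among their neighbours. For each list the members 2-fold apart were counted beside the 9.09% higher and 9.92% lower over all genes past the filter, and the median over every member with a probe set was set beside the 0.025 of those genes. A member could pass the filter through PANC1 alone or HPDE alone, and such counts lean towards the array it passed through. The plot of differences by gene list shows the lists together.

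**Figure D3:**
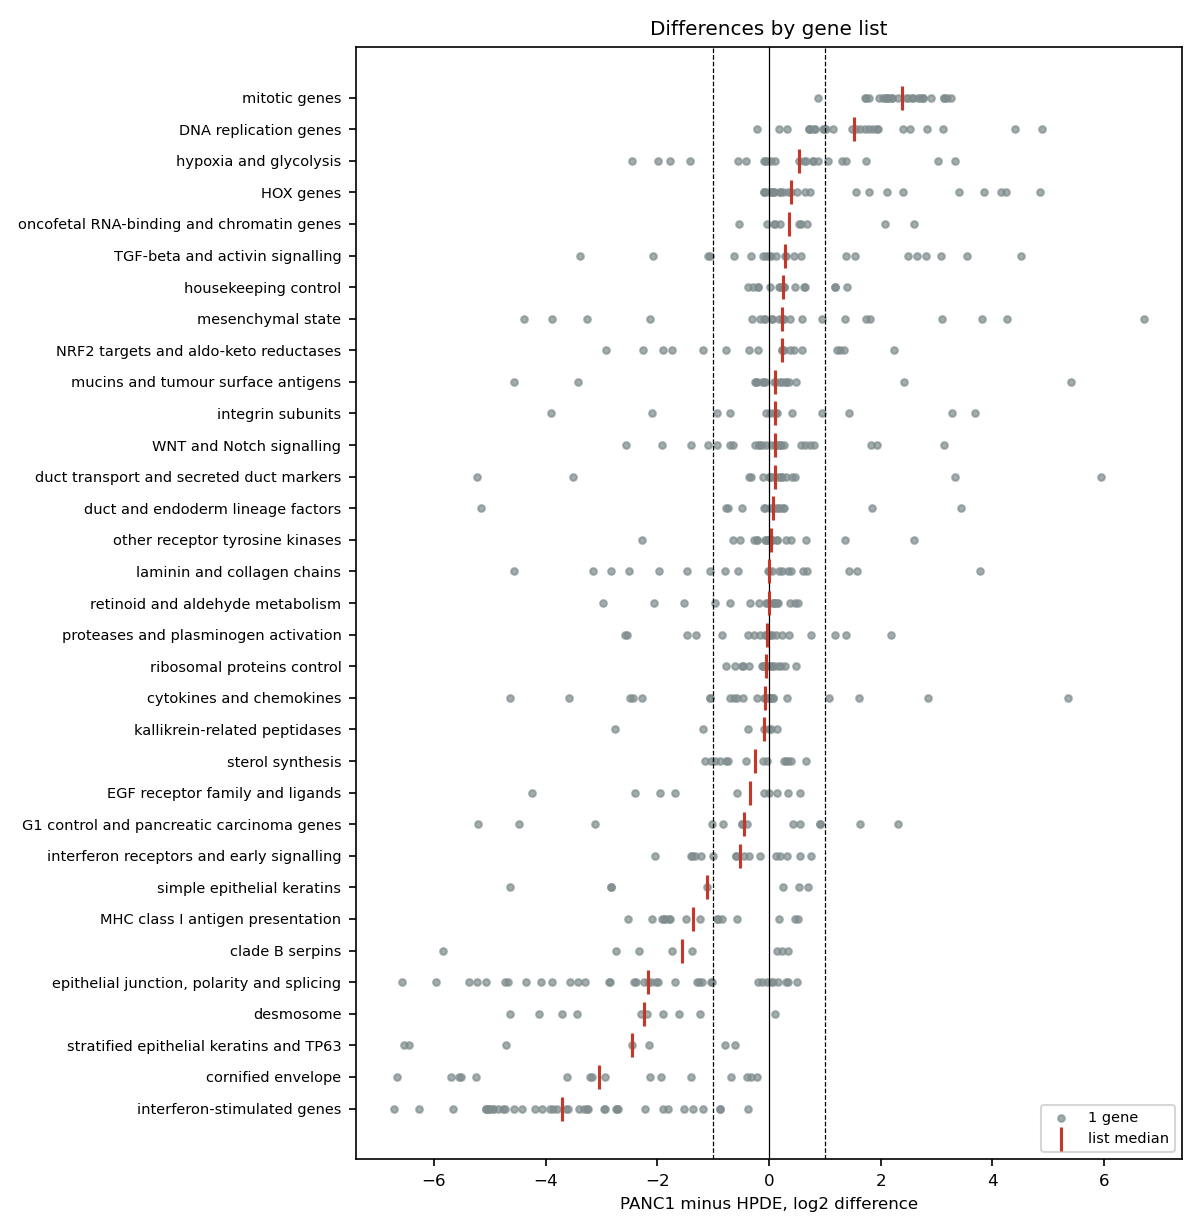
PANC1 minus HPDE, log2 difference, for every member with a probe set in the gene lists shown, each with at least 7 such members, 1 grey point a gene and a red bar at the list's median. Dashed lines mark 2-fold, with the mitotic list at the top (median 2.38) and the interferon-stimulated genes at the bottom (median -3.71).

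Epithelial genes were low in PANC1. Of 40 genes of junctions, polarity and epithelial splicing, 37 had a probe set and all of those passed the filter. PANC1 was lower than HPDE for 28 of them, or 75.7%, and higher for 0, with a median of -2.16. PANC1 was the lowest of the 5 lines for 28 of the 37, L3.6 for 5 and HPDE for 4. Of the 28 lower genes 11 were PANC1-alone and 3 were lower in all 4 carcinoma lines. The summed intensity of the list was 21048.8 in PANC1, 50837 in L3.6, 109802 in HPAF1, 87917.3 in SU86.86 and 89141.2 in HPDE. HPAF1 and SU86.86 thus carried this list at the level of HPDE, L3.6 less, and PANC1 least.

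CDH1, the epithelial cadherin, had 320.3 in PANC1, 895 in L3.6, 7588 in HPAF1, 6736 in SU86.86 and 10281 in HPDE. Both of its probe sets were lower in PANC1, with differences of -4.73 and -3.85. L3.6 was low as well, which kept CDH1 out of the PANC1-alone class. ESRP1, which sets epithelial splicing, had 46.5 in PANC1, 1672 in L3.6, 2274 in HPAF1, 1794 in SU86.86 and 4805 in HPDE, lower in all 4 carcinoma lines and at background in PANC1 (-5.37). EHF, an ETS factor of epithelia, had 14.6 in PANC1, 857 in L3.6, 4154 in HPAF1, 4599 in SU86.86 and 3134 in HPDE (-5.23). RAB25, a GTPase of apical recycling, had 49.1 in PANC1, 65.3 in L3.6, 3385 in HPAF1, 2817 in SU86.86 and 2380.4 in HPDE, so PANC1 and L3.6 were alike at background. EPCAM had 1715 in PANC1, 8733 in L3.6, 13296 in HPAF1, 9245 in SU86.86 and 4207 in HPDE, a smaller difference of -1.26 from HPDE and a larger one from the other carcinoma lines. The 9 members that stayed within 2-fold included the claudin CLDN1 (0.34) and the protease inhibitor SPINT2 (0.50).

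Promoters of these genes were searched for the E-box CAGGTG on both strands in the 250 bases before each annotated start, and a gene counted if any of its starts had a match. The promoters came from RefSeq on the build GRCh38.p14. The motif was present for 15 of 23 list members with a promoter, or 65.2%, and for 12 of the 17 lower in PANC1, against 20.6% of 27305 genes and 21.5% of the genes past the level filter. Among PANC1-alone genes it was present for 40 of 111 lower genes (36.0%) and 17 of 113 higher genes. A match is a run of letters and not a measured binding site. The stretches below are shown because they belong to the epithelial genes described here, with the E-box (CAGGTG or its reverse complement CACCTG) in capitals, each read 5′ to 3′ on the gene's own strand.
S100A14, chr1:153616326-153616369, minus strand: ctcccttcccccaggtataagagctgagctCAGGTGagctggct
RAB25, chr1:156061089-156061154, plus strand: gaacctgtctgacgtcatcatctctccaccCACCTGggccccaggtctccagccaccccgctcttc
CDS1, chr4:84583070-84583126, plus strand: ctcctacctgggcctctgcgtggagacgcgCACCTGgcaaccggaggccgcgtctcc
TMEM30B, chr14:61281421-61281486, minus strand: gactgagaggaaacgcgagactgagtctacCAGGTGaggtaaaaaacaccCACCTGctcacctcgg
SPINT1, chr15:40844421-40844476, plus strand: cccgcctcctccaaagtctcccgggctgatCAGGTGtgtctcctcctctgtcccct

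The first match lay 14 bases before the annotated start for S100A14, 26 for SPINT1, 27 for CDS1, 41 for RAB25 and 118 for TMEM30B. The genes they precede were low in PANC1 to different degrees. S100A14 was at 35.9 in PANC1 and 10069.8 in HPDE. SPINT1, an inhibitor of matriptase, was at 196 in PANC1, against 1114 to 2017 in the other carcinoma lines and 1843 in HPDE, on 1 of 2 probe sets, the other giving -0.84.

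Desmosome genes, which rivet epithelial cells to each other, were lower in PANC1 for 9 of 10 members, with 0 higher and a median of -2.24. The direction was not limited to PANC1, since 4 of the 9 were lower in all 4 carcinoma lines. DSP, the plaque protein desmoplakin, had 292 in PANC1, 1495 in L3.6, 3048 in HPAF1, 1035 in SU86.86 and 8937 in HPDE. PKP1 had 115 in PANC1, 128 in L3.6, 116 in HPAF1, 237 in SU86.86 and 3172 in HPDE, at background in all carcinoma lines but SU86.86. PKP2 and PKP3, plakophilins of the plaque, were PANC1-alone, with 59.1 in PANC1, against 303 to 1187 in the other carcinoma lines and 563 in HPDE for PKP2 and 283 in PANC1, against 1479.6 to 2472 in the other carcinoma lines and 1249.8 in HPDE for PKP3, and a second probe set of PKP2 gave -0.87. The desmosomal cadherins DSG3 (-3.70) and DSC3 (-3.44), typical of stratified epithelium, were lower in every carcinoma line.

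Simple epithelial keratins, which mark duct cells, were lower for 4 of 6 members past the filter, out of 7 with a probe set, and higher for 0. Beside KRT7 and KRT19 these were KRT23, with 43.2 in PANC1, 544 in L3.6, 6919.9 in HPAF1, 226 in SU86.86 and 746 in HPDE, and KRT80, with 592 in PANC1, 134 in L3.6, 1173 in HPAF1, 2247 in SU86.86 and 1355 in HPDE. The list summed to 19494 in PANC1 and 25024 in HPDE, against 41041.9 to 91780 in the other carcinoma lines. By these markers PANC1 and HPDE both stood below the other lines, and KRT8 (0.69) and KRT18 (0.54), the keratin pair of all simple epithelia, were within 2-fold. KRT8 read 3977 in PANC1 and 2430.2 in HPDE, and KRT18 13880.2 in PANC1 and 9520.5 in HPDE.

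Stratified keratins and cornified envelope genes, which belong to basal and squamous cells, were low in PANC1 against HPDE, while the other carcinoma lines differed among themselves. Of the stratified list 5 of 6 members past the filter were lower and 0 higher, with a median of -2.46 over the 7 with a probe set, and 0 were PANC1-alone. Of 16 cornified envelope genes 15 passed the filter and 12 were lower, 8 of them in all 4 carcinoma lines and 0 PANC1-alone, with a median of -3.05. All members past the filter reached the level limit in HPDE, against 1 of the stratified and 5 of the cornified list in PANC1. The rest passed through HPDE alone, where they were the higher, so these counts are tilted towards lower by the filter. KRT14 had 75.1 in PANC1, 103 in L3.6, 96.3 in HPAF1, 55.7 in SU86.86 and 12717 in HPDE. SPRR1B, a precursor of the envelope, had 59.2 in PANC1, 74.0 in L3.6, 363 in HPAF1, 263 in SU86.86 and 6009.9 in HPDE. S100A8, a subunit of calprotectin, had 65.7 in PANC1, 52.6 in L3.6, 57.6 in HPAF1, 163 in SU86.86 and 7051 in HPDE. For these 3 genes HPDE was far above every carcinoma line. The stratified list summed to 681.6 in PANC1, 15344.5 in L3.6, 821.1 in HPAF1, 2058 in SU86.86 and 33252.9 in HPDE, and the cornified list to 2953 in PANC1, 5294 in L3.6, 7463 in HPAF1, 11504.7 in SU86.86 and 49607.6 in HPDE. The PANC1 sums were the lowest of the 5 lines for both lists. Most of the L3.6 sum came from KRT5, with 86.2 in PANC1, 5370.5 in L3.6, 81.8 in HPAF1, 749.6 in SU86.86 and 14448 in HPDE, and from KRT13, with 70.6 in PANC1, 7952 in L3.6, 71.0 in HPAF1, 143 in SU86.86 and 146 in HPDE.

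MIR205, the host locus of a microRNA of epithelial cells that targets ZEB1 and ZEB2, was read by a probe set annotated to the transcript, and the mature microRNA was not measured. That signal was 60.6 in PANC1, 1176 in L3.6, 73.7 in HPAF1, 93.0 in SU86.86 and 6384 in HPDE, a difference of -5.62. The host gene MIR205HG read 49.5 in PANC1, 668 in L3.6, 46.8 in HPAF1, 61.9 in SU86.86 and 3213 in HPDE. PANC1, HPAF1 and SU86.86 were all near background on both, and L3.6 was below HPDE, so the low signal was not particular to PANC1. The mature sequence is given because its seed, bases 2 to 8 in capitals, is what pairs with targets. It lies at chr1:209432166-209432187 on the plus strand of GRCh38.p14, per RefSeq.
hsa-miR-205-5p: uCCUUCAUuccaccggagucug

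Mesenchymal genes were mixed. Of 24 members 19 passed the filter, 7 were higher in PANC1 (36.8%) and 4 lower (21.1%), with a median of 0.24 over all 24. Higher were VIM, the membrane protein EMP3, with 2586 in PANC1, 1055 in L3.6, 624 in HPAF1, 3114 in SU86.86 and 67.6 in HPDE, the N-cadherin CDH2, with 1488 in PANC1, 104 in L3.6, 66.4 in HPAF1, 2884 in SU86.86 and 40.1 in HPDE, and the lysyl oxidase LOXL2 (3.10), on 2 of 3 probe sets, the third giving 0.27. CDH2 was higher still in SU86.86 and at background in HPAF1 and L3.6. Also higher were the actin linker MSN (1.73), ZEB1 and the receptor kinase AXL (1.35), on 1 of 2 probe sets, the other giving 0.23. Lower beside SNAI2 were the matrix proteins SPARC, with 58.2 in PANC1, 57.5 in L3.6, 51.8 in HPAF1, 43.3 in SU86.86 and 1847 in HPDE, FN1, with 106 in PANC1, 145 in L3.6, 229.7 in HPAF1, 2353 in SU86.86 and 1622 in HPDE, and TGFBI, with 1052 in PANC1, 173 in L3.6, 12425 in HPAF1, 5906 in SU86.86 and 4863 in HPDE. HPDE was alone in SPARC, and FN1 was shared by SU86.86 and HPDE. A second probe set of SPARC gave -0.67, and the smallest difference among the 5 probe sets of FN1 past the limit was -0.76.

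Interferon-stimulated genes showed the lowest median of any list. All 40 members with a probe set, of 42, passed the filter, and 37 were lower in PANC1 than in HPDE (92.5%), with 0 higher and a median of -3.71. PANC1 was the lowest of the 5 lines for 30 of the 40, and L3.6 for 9. The summed intensity was 15843.5 in PANC1, 33580.4 in L3.6, 109061 in HPAF1, 44880.8 in SU86.86 and 177821 in HPDE. The direction was common: 22 members were lower than HPDE by 2-fold in all 4 carcinoma lines and 2 were PANC1-alone. HPDE is 1 array, so its high level underlies all of these.

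MX1, a GTPase that blocks viruses, had 49.3 in PANC1, 75.2 in L3.6, 3451 in HPAF1, 273 in SU86.86 and 9178 in HPDE. BST2, which tethers budding virions, had 35.9 in PANC1, 64.4 in L3.6, 3784 in HPAF1, 43.6 in SU86.86 and 5323 in HPDE, and PANC1, SU86.86 and L3.6 were all near background. DDX60, a helicase of antiviral sensing, had 120.0 in PANC1, 126 in L3.6, 1618 in HPAF1, 355 in SU86.86 and 6348 in HPDE. ISG15, a ubiquitin-like modifier, had 704 in PANC1, 401 in L3.6, 7829 in HPAF1, 3779 in SU86.86 and 22376 in HPDE, where L3.6 rather than PANC1 was the lowest. The 2 PANC1-alone members were IFITM2, with 2112 in PANC1, 7377 in L3.6, 9242 in HPAF1, 7614 in SU86.86 and 8079 in HPDE, and IFITM3, with 3637 in PANC1, 9355 in L3.6, 11323 in HPAF1, 10646 in SU86.86 and 10608 in HPDE. These restrict viral entry, and as near-identical copies they may share probe signal. The members within 2-fold were SAMD9L (-0.37), MX2 (-0.88) and IFI35 (-0.88).

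**Figure D4:**
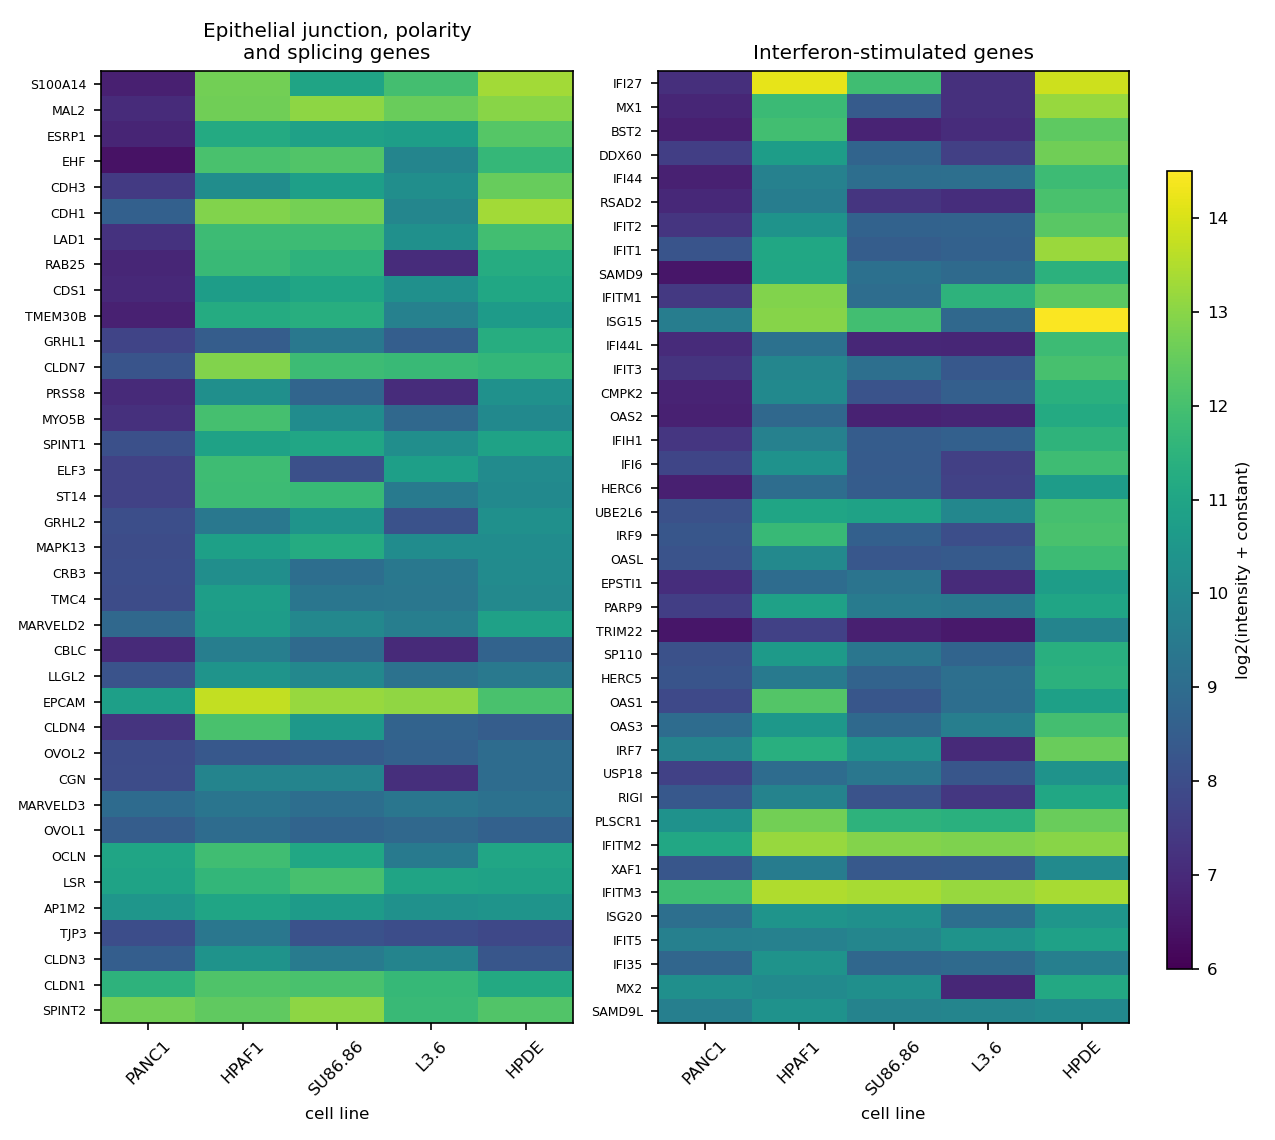
Level, log2(intensity + 71.12), of the 37 epithelial genes (left) and the 40 interferon-stimulated genes (right) in each line, 1 array a line, ordered from the lowest PANC1 minus HPDE at the top. PANC1 is dark down most of the left panel, where HPAF1 and SU86.86 resemble HPDE, whereas on the right PANC1, SU86.86 and L3.6 are all darker than HPDE, with PANC1 lowest for 30 genes.

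The ISRE was searched as TTTC, any 2 bases, then TTTC, on both strands of the same promoters. It was present for 22 of 33 list members with a promoter (66.7%), and those 22 were among the 30 lower in PANC1 (73.3%), against 3.71% of 27305 genes and 3.11% of the genes past the filter. Among PANC1-alone genes it was present for 9 of 111 lower (8.11%) and 6 of 113 higher genes (5.31%). For genes shared by the 4 carcinoma lines the share was 7.26% of 234 lower and 3.54% of 113 higher genes. The stretches below show the element before genes far lower in PANC1, in capitals (with TTTC where the match is on the printed strand and GAAA where it is on the other), 5′ to 3′ on the gene's strand.
IFI27, chr14:94110598-94110667, plus strand: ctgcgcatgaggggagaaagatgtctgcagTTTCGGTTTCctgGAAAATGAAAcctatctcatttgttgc
ISG15, chr1:1013354-1013423, plus strand: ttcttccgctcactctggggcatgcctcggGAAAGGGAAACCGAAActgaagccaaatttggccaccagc
BST2, chr19:17405721-17405790, minus strand: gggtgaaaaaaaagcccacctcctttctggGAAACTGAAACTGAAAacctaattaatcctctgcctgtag
IFI44L, chr1:78620254-78620323, plus strand: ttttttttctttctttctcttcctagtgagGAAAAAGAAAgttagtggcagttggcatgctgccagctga
RSAD2, chr2:6877602-6877671, plus strand: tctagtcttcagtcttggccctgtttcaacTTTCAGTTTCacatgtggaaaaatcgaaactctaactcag

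In ISG15 and BST2 the 2 matches overlap. The gene IFI44L had 61.9 in PANC1, 50.3 in L3.6, 501 in HPAF1, 50.9 in SU86.86 and 3554 in HPDE, and RSAD2, the radical enzyme viperin, had 56.3 in PANC1, 66.4 in L3.6, 709 in HPAF1, 87.2 in SU86.86 and 4151 in HPDE. Both were near background in PANC1, L3.6 and SU86.86, and the matches began 164 and 145 bases before the annotated start.

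The listed receptors and early signalling genes of interferon were less far apart. Of 16 members, all past the filter, 5 were lower in PANC1 (31.2%) and 0 higher. The median was -0.52. This contrast depends on which genes the list holds. Outside it and lower in PANC1 were the receptor IFNLR1 (-2.09, on 1 of 2 probe sets) and the sensor IFIH1 (-4.18). So were the transcription factors IRF9 (-3.79) and IRF7 (-2.74). IFNGR1, the receptor of interferon gamma, was PANC1-alone, with 623 in PANC1, 1478 in L3.6, 2847 in HPAF1, 1501 in SU86.86 and 1733 in HPDE (-1.38). TLR3, a sensor of viral RNA, had 27.0 in PANC1, 164 in L3.6, 132 in HPAF1, 114 in SU86.86 and 333 in HPDE. The adaptor MAVS had 564 in PANC1, 966 in L3.6, 1669.8 in HPAF1, 589 in SU86.86 and 1592 in HPDE, and the transcription factor IRF1 had 242 in PANC1, 537 in L3.6, 1087 in HPAF1, 746 in SU86.86 and 712 in HPDE. For IRF1 the lowest of the 5 lines was PANC1 and the highest HPAF1, on 1 of 2 probe sets.

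MHC class I genes, which present peptides to T cells, were lower in PANC1 for 9 of 16 members (56.2%) and higher for 0, with a median of -1.36. HLA-B had 2159 in PANC1, 5094 in L3.6, 6647 in HPAF1, 15673 in SU86.86 and 12696 in HPDE, and HLA-C had 2500.0 in PANC1, 5349 in L3.6, 8010.2 in HPAF1, 12869.9 in SU86.86 and 10922 in HPDE. SU86.86 was above HPDE for both and PANC1 the lowest. HLA-F (-1.92), HLA-G (-1.89) and the immunoproteasome subunit PSMB8 (-1.80) were PANC1-alone, with 1 of 3 probe sets of HLA-F at -0.63. B2M, the light chain, had 10540.1 in PANC1, 13250.2 in L3.6, 20772 in HPAF1, 19665 in SU86.86 and 19024 in HPDE, within 2-fold. The class I genes are close copies of each other, so probe signal may be shared between them.

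Cytokines and chemokines split. Of 26 with a probe set 18 passed the filter, with 4 higher (22.2%) and 7 lower (38.9%) in PANC1, and the median over the 26 was -0.076. Higher beside CCL2 were LIF, with 1180.2 in PANC1, 494 in L3.6, 1164 in HPAF1, 1577 in SU86.86 and 103 in HPDE, IL11 (1.61) and CSF1 (1.07). LIF was shared by all carcinoma lines. IL11 rested on 1 of 2 probe sets, the other giving 0.21, and CSF1 on 2 of 4, the smallest being 0.67. Lower were the alarmin IL1A, with 92.6 in PANC1, 136 in L3.6, 244 in HPAF1, 8461 in SU86.86 and 3986 in HPDE, IL1B, with 213 in PANC1, 218 in L3.6, 184 in HPAF1, 2299.6 in SU86.86 and 1528 in HPDE, and the neutrophil chemokine CXCL2, with 39.1 in PANC1, 219.7 in L3.6, 813 in HPAF1, 1989 in SU86.86 and 1242 in HPDE. PANC1 was at background for IL1A and CXCL2, and SU86.86 was above HPDE for all of these. The second probe set of CXCL2 gave -0.50.

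Mitotic genes were higher in PANC1 than in HPDE for 25 of 26 members (96.2%), with 0 lower and a median of 2.38. HPDE was the lowest of the 5 lines for 25 of the 26. Of the 25 higher genes 8 were shared by all 4 carcinoma lines and 0 were PANC1-alone. KIF20A, a kinesin of cell division, had 2005 in PANC1, 2125 in L3.6, 1354 in HPAF1, 2000.4 in SU86.86 and 146 in HPDE. TPX2, which assembles the spindle, had 6898 in PANC1, 4627 in L3.6, 2127 in HPAF1, 5762 in SU86.86 and 719.6 in HPDE. PANC1 was close to SU86.86 and L3.6, with a list median of 0.38 above SU86.86 and 0.15 above L3.6, and HPAF1 lay between them and HPDE. AURKB, the kinase of the chromosomal passenger complex, had 2721 in PANC1, 3245 in L3.6, 806 in HPAF1, 3336 in SU86.86 and 237 in HPDE, on 1 of 2 probe sets, the other giving 0.45.

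DNA replication genes were higher in PANC1 for 16 of 26 (61.5%), with 0 lower and a median of 1.53. TYMS, which makes thymidylate, had 12188 in PANC1, 5714 in L3.6, 928 in HPAF1, 4963 in SU86.86 and 341 in HPDE, the highest in PANC1 (4.90), on 2 of 3 probe sets, the third giving 0.13. RRM2, a subunit of ribonucleotide reductase, had 9399.7 in PANC1, 10298 in L3.6, 2245 in HPAF1, 9485 in SU86.86 and 378 in HPDE, where PANC1, SU86.86 and L3.6 were alike. MCM10, needed to start replication, had 1164 in PANC1, 1753 in L3.6, 141 in HPAF1, 862 in SU86.86 and 71.2 in HPDE. HPAF1 was the lowest line for 16 of the 26 genes, so this list did not set the 4 carcinoma lines apart from HPDE as a group.

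Genes of G1 control were led by the chromosome 9 inhibitors. CDKN2A, an inhibitor of CDK4 and CDK6 that is often lost in pancreatic carcinoma, had 179 in PANC1, 5597 in L3.6, 11086 in HPAF1, 189 in SU86.86 and 9148 in HPDE, a difference of -5.20 on 2 of 3 probe sets, the third giving 0.042. CDKN2B, its neighbour, had 21.5 in PANC1, 257 in L3.6, 2789 in HPAF1, 24.9 in SU86.86 and 729 in HPDE. PANC1 and SU86.86 were both far below HPDE for the pair, so neither was PANC1-alone. CCND2, a D-type cyclin, had 94.3 in PANC1, 80.6 in L3.6, 64.9 in HPAF1, 71.2 in SU86.86 and 3608 in HPDE, seen in HPDE and in no carcinoma line. CCNE1 (1.62) and CCNE2 (2.31), the E-type cyclins, were higher in PANC1. SMAD4 had 862 in PANC1, 645 in L3.6, 589 in HPAF1, 326 in SU86.86 and 1241 in HPDE, within 2-fold of HPDE (-0.49), with SU86.86 the lowest. In all, 2 of 14 members were higher and 4 lower, with a median of -0.44.

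HOX genes, which give cells their position along the body axis, were higher in PANC1 for 9 of 18 past the filter and lower for 0. Of these 18, all reached the level limit in PANC1 and 10 in HPDE. The rest passed through PANC1 alone, where they were the higher, so the share is tilted upward by the filter. Over all 25 with a probe set the median was 0.39. HOXC6 had 2887 in PANC1, 517 in L3.6, 1049.7 in HPAF1, 395 in SU86.86 and 31.3 in HPDE, the highest in PANC1 (4.85). HOXB7 had 2502 in PANC1, 1799 in L3.6, 110.3 in HPAF1, 2691 in SU86.86 and 73.8 in HPDE, where PANC1, SU86.86 and L3.6 carried the signal and HPAF1 did not. HOXB6 had 1776 in PANC1, 464 in L3.6, 2676 in HPAF1, 1864 in SU86.86 and 26.9 in HPDE, with HPAF1 above PANC1, on 1 of 2 probe sets, the other giving 0.58. HOXB9 had 1618 in PANC1, 431 in L3.6, 544 in HPAF1, 1891 in SU86.86 and 45.8 in HPDE. HOXC9 was the PANC1-alone member. PANC1 was above background across both the B and the C cluster genes named, and HPDE was not.

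Duct and endoderm lineage factors gave few differences. Of 15 with a probe set 10 passed the filter, with 2 higher and 1 lower in PANC1 and a median of 0.063 over the 15. SOX9, a factor of duct cells, had 2551 in PANC1, 597 in L3.6, 1679.5 in HPAF1, 2911 in SU86.86 and 171 in HPDE, higher in all 4 carcinoma lines. FOXA2 was the PANC1-alone member. KLF5, a factor of epithelial growth, had 121 in PANC1, 4736 in L3.6, 4069.8 in HPAF1, 3325 in SU86.86 and 6806 in HPDE, near background in PANC1 and high in every other line (-5.16). SU86.86 was also 2-fold below HPDE, at -1.02, which kept KLF5 out of the PANC1-alone class.

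Duct transport and secreted duct genes had 2 of 12 members past the filter higher and 2 lower, with a median of 0.099 over 18. AGR2 had 11387 in PANC1, 714 in L3.6, 11658 in HPAF1, 6901 in SU86.86 and 114 in HPDE. CLU, the chaperone clusterin, had 5906 in PANC1, 355 in L3.6, 1421 in HPAF1, 322 in SU86.86 and 524 in HPDE, the highest in PANC1 (3.33). SLPI, a secreted protease inhibitor, had 149 in PANC1, 2485 in L3.6, 1642 in HPAF1, 3033 in SU86.86 and 8212 in HPDE, lower in all carcinoma lines and near the level limit in PANC1.

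TGF-beta and activin genes were higher in PANC1 for 8 of 22 past the filter (36.4%) and lower for 4 (18.2%), with a median of 0.29 over 23. INHBB, a subunit of activin, had 2931 in PANC1, 157 in L3.6, 266 in HPAF1, 997 in SU86.86 and 60.6 in HPDE, with SU86.86 next (4.51). The ligand TGFB2 had 1809.5 in PANC1, 706 in L3.6, 1639 in HPAF1, 1534 in SU86.86 and 90.7 in HPDE, and the signal transducer SMAD3 had 3233 in PANC1, 1115 in L3.6, 1114 in HPAF1, 1720.1 in SU86.86 and 322 in HPDE. Both were lowest in HPDE and shared by the carcinoma lines. CCN2, a matricellular target, had 5180.4 in PANC1, 174 in L3.6, 2129.7 in HPAF1, 2134 in SU86.86 and 769 in HPDE. Lower was THBS1, which can activate latent TGF-beta, with 93.8 in PANC1, 626 in L3.6, 310.2 in HPAF1, 5095 in SU86.86 and 628 in HPDE, and TGFA, which acts on the EGF receptor in spite of its name.

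In the list of the EGF receptor family and its ligands 3 ligands and 1 receptor were lower in PANC1. TGFA, a further ligand that was lower in PANC1, was counted in the TGF-beta list and not in this one. Of 10 members with a probe set 8 passed the filter, 4 were lower and 0 higher, with a median of -0.33 over the 10. EREG, epiregulin, had 252 in PANC1, 2218 in L3.6, 4561 in HPAF1, 5786 in SU86.86 and 6020.0 in HPDE. HBEGF had 323 in PANC1, 2014 in L3.6, 1330.2 in HPAF1, 3638 in SU86.86 and 1189 in HPDE, and BTC, betacellulin, had 25.4 in PANC1, 123 in L3.6, 261 in HPAF1, 379 in SU86.86 and 302 in HPDE, both PANC1-alone, and 1 of 3 probe sets of HBEGF gave 0.031. ERBB3, a receptor without strong kinase activity, had 107 in PANC1, 267 in L3.6, 3788 in HPAF1, 333 in SU86.86 and 873 in HPDE, on 2 of 3 probe sets, the third giving -0.085. EGFR itself had 4226 in PANC1, 1911 in L3.6, 3989 in HPAF1, 4357 in SU86.86 and 3340.1 in HPDE (0.33).

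Integrins had 3 of 12 members past the filter higher and 2 lower, with a median of 0.11 over 14. ITGB5 had 5438 in PANC1, 1785 in L3.6, 2436 in HPAF1, 2888 in SU86.86 and 356 in HPDE, and ITGA2, a collagen receptor subunit, had 2347 in PANC1, 1663 in L3.6, 4279 in HPAF1, 6088 in SU86.86 and 179 in HPDE, both lowest in HPDE. ITGB8, which with ITGAV activates latent TGF-beta, had 28.9 in PANC1, 919.7 in L3.6, 187 in HPAF1, 1522 in SU86.86 and 355 in HPDE, PANC1-alone on the lower side as was ITGB4. Laminin and collagen chains had 3 higher and 7 lower of 19 past the filter, with a median of -0.0033 over 21. LAMB3, a chain of an epithelial laminin, had 114 in PANC1, 1827 in L3.6, 1797 in HPAF1, 4994 in SU86.86 and 4323 in HPDE, near background in PANC1 (-4.57). COL4A1 had 32.3 in PANC1, 1730.4 in L3.6, 29.9 in HPAF1, 209.5 in SU86.86 and 849 in HPDE. Its partner COL4A2 had 55.5 in PANC1, 2109 in L3.6, 142 in HPAF1, 108 in SU86.86 and 824 in HPDE. Both were below HPDE in PANC1, HPAF1 and SU86.86 and highest in L3.6. COL18A1, the source of endostatin, had 4816 in PANC1, 188 in L3.6, 389 in HPAF1, 857 in SU86.86 and 285 in HPDE, the highest in PANC1 (3.78).

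NRF2 targets and aldo-keto reductases had 4 of 17 members past the filter higher (23.5%) and 5 lower (29.4%), with a median of 0.23 over 18, and 4 of the 5 lower were PANC1-alone. SLC7A11, the cystine transporter, had 515 in PANC1, 2416 in L3.6, 4563 in HPAF1, 3158 in SU86.86 and 4351 in HPDE (-2.92). AKR1C3 had 28.5 in PANC1, 909 in L3.6, 9332 in HPAF1, 388 in SU86.86 and 406 in HPDE, and AKR1C2 had 164 in PANC1, 1017 in L3.6, 4078 in HPAF1, 522 in SU86.86 and 803 in HPDE. AKR1C1 had 258 in PANC1, 1121 in L3.6, 4219 in HPAF1, 605 in SU86.86 and 1028 in HPDE, and as close copies these enzymes may share probe signal. Higher beside HMOX1 were TXNRD1 (1.35), TALDO1 (1.28) and GCLM (1.22). Direction within the list thus differed by member, with the cystine transporter and aldo-keto reductases low in PANC1 and HMOX1 high.

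Hypoxia and glycolysis genes had 6 of 22 past the filter higher (27.3%) and 4 lower (18.2%), with a median of 0.53 over 23. PFKP, a phosphofructokinase, had 9187 in PANC1, 4939 in L3.6, 4931 in HPAF1, 4752 in SU86.86 and 851 in HPDE, on 1 of 2 probe sets, the other giving -0.0895. ADM, adrenomedullin, had 6513 in PANC1, 1016 in L3.6, 1044 in HPAF1, 2632 in SU86.86 and 737 in HPDE. VEGFA had 1203 in PANC1, 2019.9 in L3.6, 4001 in HPAF1, 1979.6 in SU86.86 and 6937 in HPDE, the lowest in PANC1. SLC2A1, the glucose transporter of most cells, had 973 in PANC1, 8629 in L3.6, 5997 in HPAF1, 5074 in SU86.86 and 3474 in HPDE, and HK2, a hexokinase, had 399 in PANC1, 906 in L3.6, 1022 in HPAF1, 1365 in SU86.86 and 1185 in HPDE, both PANC1-alone on the lower side. The call of HK2 rested on 1 of 3 probe sets, and the other two had the opposite sign, up to 1.40. The enzymes ENO2 (1.73), ENO1 (1.31) and LDHA (1.05) were higher, with 1 of 4 probe sets of ENO1 at -0.39, while ALDOA (0.79), TPI1 (0.67), PGK1 (0.62) and PGAM1 (0.53) were within 2-fold.

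Most genes of the control lists were within 2-fold. Of 17 housekeeping genes 3 were higher (17.6%, against 9.09% over all genes) and 0 lower. Their median was 0.25, against 0.025 over all genes. It was thus near the medians of the mesenchymal (0.24), NRF2 (0.23) and TGF-beta (0.29) lists. The higher genes were HPRT1 (1.40), TFRC (1.19) and VCP (1.19), with 1 of 4 probe sets of TFRC at 0.054. Of 18 ribosomal protein genes 0 were 2-fold apart, with a median of -0.062. Markers of other cell types gave no member 2-fold higher in PANC1. Of 11 leukocyte markers with a probe set 4 reached the level limit in PANC1 and 3 in HPDE, of 11 fibroblast markers 6 in PANC1 and 5 in HPDE, of 9 endothelial markers 2 in each, and of 7 acinar markers 0 in each. Summed intensity was 1369.94 in PANC1 and 1351.12 in HPDE for leukocytes, and 3512.61 in PANC1 and 2605.85 in HPDE for fibroblasts. It was 1201.9 in PANC1 and 1158.39 in HPDE for endothelium, and 465.154 in PANC1 and 516.195 in HPDE for acinar cells. Of 11 endocrine markers 1 was 2-fold apart, UCHL1, a neuronal ubiquitin hydrolase, with 51.4 in PANC1, 423 in L3.6, 44.7 in HPAF1, 533 in SU86.86 and 509 in HPDE, and another of its probe sets gave 0.097.

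The genes were then placed in RefSeq order along each chromosome, without coordinates. Of the 1010 genes of chromosome 19 past the filter 17 were PANC1-alone on the higher side, or 1.68%, and of the 463 of chromosome 8 20 were on the lower side, or 4.32%, against 1.09% and 1.13% over all genes. The share on the higher side was larger on chromosomes 18 (2.4%), X (2.31%), 10 (2.02%) and 15 (1.79%) than on chromosome 19, which is described for its run of neighbouring genes. On the lower side chromosome 8 had the largest share, and chromosome 4 the next, 2.09%. In 13495 windows of 15 neighbouring genes, both the median of PANC1 minus HPDE and that of PANC1 minus the mean of the other carcinoma lines were at least 2-fold higher for 21 windows and lower for 10. Successive windows share most of their genes, so these are not separate regions. The higher windows all lay on chromosome 19 and the lower ones all on chromosome 8. Ranked by the smaller of the medians, the highest window ran from FBXO17 to EID2B on chromosome 19, with medians of 2.06 against HPDE and 1.92 against the mean of the other lines. The lowest so ranked ran from HMBOX1 to LOC105379362 on chromosome 8, with medians of -1.20 and -1.31.

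Around the first window, 37 genes from EIF3K to AKT2 held 25 higher in PANC1 by 2-fold and 0 lower, with a median of 1.72, and PANC1 had the highest value for 26 of them. The bounds of this stretch were chosen after the values were seen. AKT2, a kinase of insulin and growth factor signalling, had 7238 in PANC1, 697 in L3.6, 536 in HPAF1, 2895 in SU86.86 and 825 in HPDE. PAF1, a subunit of the complex that travels with RNA polymerase II, had 5506 in PANC1, 701 in L3.6, 341 in HPAF1, 2314 in SU86.86 and 615 in HPDE. PSMC4, a proteasome ATPase, had 16134 in PANC1, 3969.8 in L3.6, 2708 in HPAF1, 7619.7 in SU86.86 and 1685 in HPDE, and SUPT5H, an elongation factor, had 4557 in PANC1, 853 in L3.6, 592 in HPAF1, 3346 in SU86.86 and 997 in HPDE. In each PANC1 was the highest and SU86.86 the next.

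The stretch was shared in part with SU86.86, whose median over the 37 genes was 0.68 above HPDE, while HPAF1 was at -0.16 and L3.6 at 0.072. Hence 7 of the 37 were PANC1-alone, among them EIF3K, a translation initiation factor, with 16589 in PANC1, 5492 in L3.6, 4482 in HPAF1, 7716 in SU86.86 and 5001 in HPDE, the Mediator subunit MED29, with 4988 in PANC1, 481 in L3.6, 358 in HPAF1, 2244 in SU86.86 and 1139 in HPDE, and DLL3 and EID2B. For EIF3K 1 of 4 probe sets gave 0.0094. PLEKHG2 had the largest difference of the stretch (4.41), with 1 of 3 probe sets at 0.60. Genes within it that did not differ included FCGBP (0.011), CAPN12 (-0.047) and ZFP36 (0.021). DNA copy number was not analysed here.

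On the short arm of chromosome 8, 23 genes from ZNF395 to TTI2 held 13 lower and 0 higher in PANC1. These bounds too were chosen after the values were seen, and low genes went on past TTI2, among them ERLIN2 (-2.88), PLEKHA2 (-2.21), NSD3 (-2.12) and ZNF703 (-1.62), with 1 of 3 probe sets at 0.021 for ERLIN2 and at -0.15 for PLEKHA2. The median of the 23 was -1.13, and PANC1 was the lowest line for 16. DUSP4, a phosphatase of ERK, had 54.6 in PANC1, 4367 in L3.6, 1556 in HPAF1, 2487 in SU86.86 and 777 in HPDE, and SARAF, a brake on calcium entry, had 919 in PANC1, 3858 in L3.6, 4574 in HPAF1, 2468 in SU86.86 and 3783 in HPDE. PPP2CB, a catalytic subunit of a major protein phosphatase, had 2011 in PANC1, 4008 in L3.6, 7436 in HPAF1, 4407 in SU86.86 and 7260.1 in HPDE. The second probe set gave -0.30 for SARAF and -0.46 for PPP2CB. In SARAF and DUSP4 PANC1 stood apart from every other line, and 6 of the 23 were PANC1-alone. The stretch had a median of -0.44 in SU86.86, -0.021 in HPAF1 and 0.028 in L3.6, each minus HPDE. NRG1 (-0.0049), inside the stretch, was equal in PANC1 and HPDE.

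**Figure D5:**
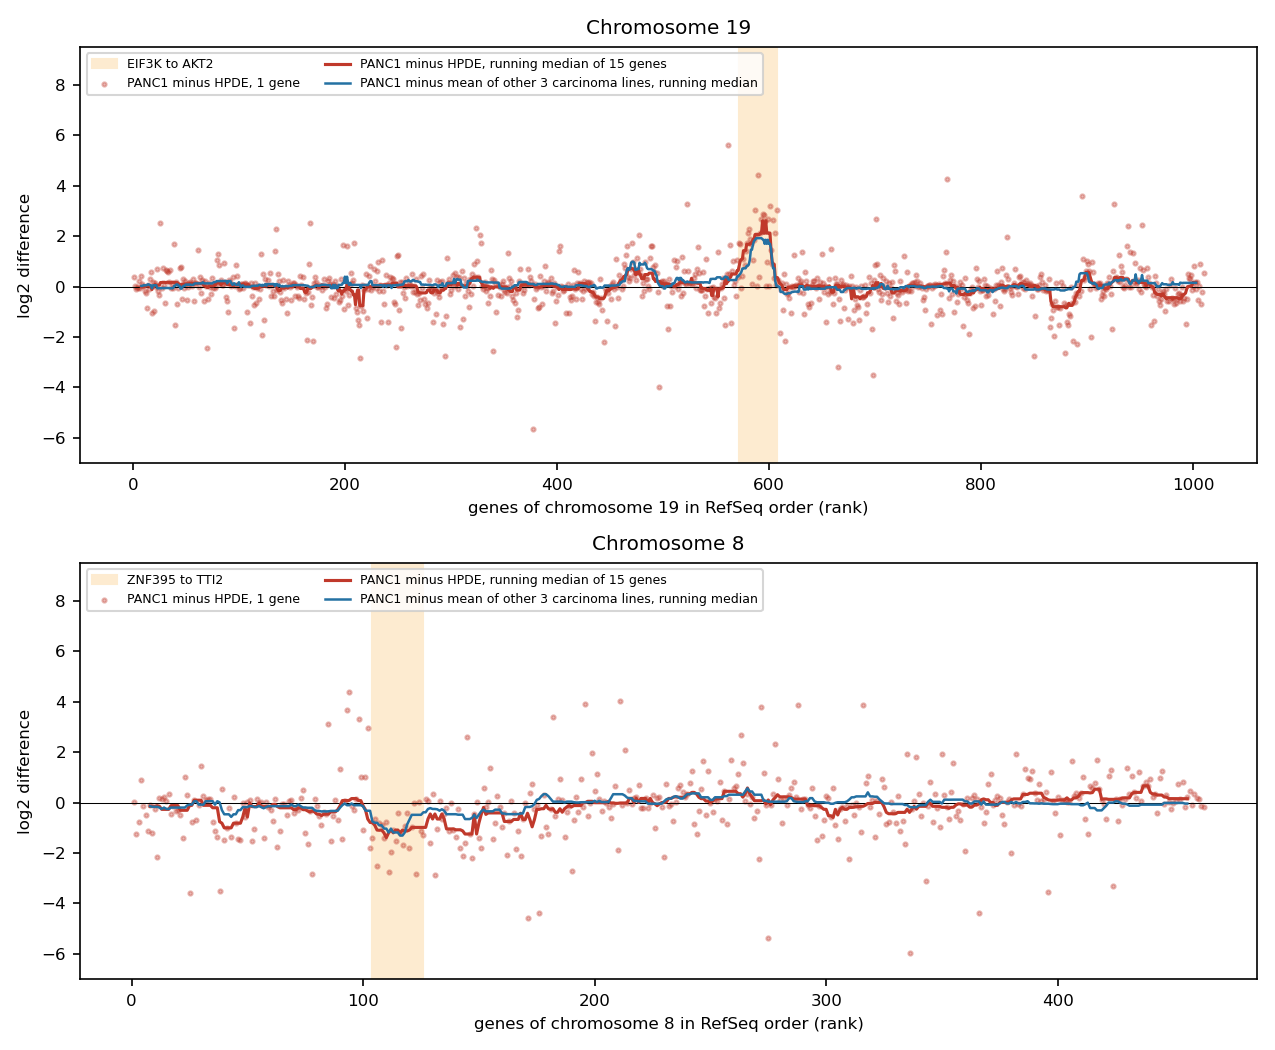
PANC1 minus HPDE, log2 difference, of each gene past the filter on chromosome 19 (top) and chromosome 8 (bottom) by its rank in RefSeq order, with running medians of 15 genes against HPDE (red) and against the mean of the other 3 carcinoma lines (blue). Both medians are highest on chromosome 19 between EIF3K and AKT2 (shaded), with a window median of 2.06 against HPDE, and both are lowest on chromosome 8 between ZNF395 and TTI2 (shaded).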

How the data were processed

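Per the labels, total RNA of each of 5 cell lines was labelled with biotin and hybridised to 1 Affymetrix array of 1 colour. The authors deposited linear intensity values for 54675 probe sets. The summarisation, background correction, scaling and software are not given in the sources used here. No further scaling was applied, as the log2 array medians differed by 0.039. Probe sets were named through the platform annotation and RefSeq tables of GRCh38.p14. Of them 41091 carried 1 symbol, 41037 matched to a current symbol, 1801 carried several, 62 were controls, and 11721 others were not listed. The level limit, the constant of 71.12, the PANC1-alone class and the 2-fold limit are described in the report. The class rule was run on simulated data in which large changes were planted in bright genes. That run does not check counts of smaller differences or of genes near background. Genes were named by rule: the 15 highest and 15 lowest PANC1-alone genes, the 6 at each end over all genes, the 5 at each end shared by the carcinoma lines, up to 4 of each list plus 2 against its median, and a fixed set. A few others, chosen after their values were seen, are also named. The members, the 39 lists and the rule were chosen with earlier results of these data known. Of these lists 1 is not reported here. With 1 array on each side no test was possible, and the number of arrays limits the precision. Alternatives were another added constant, another level filter, the probe set rule, the scaling between arrays, a 4-fold limit, and leaving out a carcinoma line. Python 3.11.15, pandas 2.3.3, numpy 2.4.6 and matplotlib 3.10.9 were used.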

Additional observations from a re-analysis of the deposited data

How the results depend on the processing

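No paired analysis was possible because each line had 1 array. With a limit of 4-fold in place of 2-fold, 358 genes were higher and 414 lower in PANC1 than in HPDE, and the PANC1-alone counts were 28 higher and 63 lower. Leaving out a carcinoma line, the higher PANC1-alone count ran from 202 (without HPAF1) to 231 (without L3.6) and 308 (without SU86.86), and the lower count from 197 (without HPAF1) to 275 (without L3.6). Under the other constants, filters, probe set rules and scalings the counts stayed within 1.5 times their reported values. Of the 156 lower PANC1-alone genes, 96 were in the class with probe sets averaged and 104 with those of suffix _x_at or _s_at dropped, and of the 151 higher ones 103 and 107. For the 48 genes followed, 370 of 376 values kept their direction and their side of the 2-fold limit. With _x_at and _s_at probe sets dropped, P3H2 was -0.0555 and ANPEP -0.2563, and ITPR2 (0.56), KRT7 (-0.069) and ITGB4 (-0.030) were within 2-fold, as was ANPEP (0.93) with probe sets averaged. Of 280 list medians 202 moved by less than the largest spike-in spread of 0.144, and 0 of the list medians called changed sign. Medians crossed 0, and so have no settled direction, for the lists of NRF2 targets (-0.14 to 0.26), duct transport (-0.11 to 0.31), laminin and collagen chains (-1.26 to 0.043), proteases (-0.84 to 0.017), WNT and Notch genes (-0.21 to 0.14) and other receptor tyrosine kinases (-0.054 to 0.047). Others kept their sign while their size moved most, namely HOX genes (0.39 to 2.90), kallikreins (-2.76 to -0.069), stratified keratins (-4.71 to -2.46), clade B serpins (-2.61 to -1.09), desmosomes (-3.44 to -1.96) and EGF family genes (-1.81 to -0.33). Culture, harvest and labelling error were not measured, and differences of genes near background depend on the added constant.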

Other observations

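Gene lists not described above are given here with the share of members 2-fold apart. Over all genes past the filter 9.09% were higher and 9.92% lower in PANC1 than in HPDE. A share near these values is not a result about its list. Of 12 mucin and tumour antigen genes past the level filter, out of 18 with a probe set, 2 were higher (16.7%) and 2 lower (16.7%) in PANC1. The higher ones were TM4SF1 and CD44, and the lower ones CD24 and LAMB3, a laminin chain counted in the laminin list too. No mucin was among them. CD44, a receptor for hyaluronan, had an intensity of 9143 in PANC1, 4217 in L3.6, 1533 in HPAF1, 6500.5 in SU86.86 and 1657 in HPDE, higher on 7 of 9 probe sets. CD24, a mucin-like surface protein, had 784 in PANC1, 548 in L3.6, 5435 in HPAF1, 5235 in SU86.86 and 9125 in HPDE, with L3.6 below PANC1. Of 13 retinoid and aldehyde genes past the filter 0 were higher and 3 lower (23.1%). ALDH1A3, which makes retinoic acid, had 534 in PANC1, 6056 in L3.6, 9075 in HPAF1, 6571 in SU86.86 and 1676 in HPDE and was PANC1-alone. ALDH2, the mitochondrial enzyme, had 243 in PANC1, 913 in L3.6, 8443 in HPAF1, 635 in SU86.86 and 2395 in HPDE. RXRA, the partner of retinoic acid receptors, had 493 in PANC1, 2219.6 in L3.6, 659.6 in HPAF1, 805 in SU86.86 and 2272 in HPDE, on 1 of 2 probe sets, the other giving -0.89.

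Of 25 WNT and Notch genes past the filter 3 were higher and 4 lower. DKK1, a WNT antagonist, had 5666 in PANC1, 7133 in L3.6, 7716 in HPAF1, 6538 in SU86.86 and 585 in HPDE, and the receptor FZD7 had 1263 in PANC1, 323 in L3.6, 765 in HPAF1, 381 in SU86.86 and 276 in HPDE. NOTCH3 had 244 in PANC1, 209 in L3.6, 235 in HPAF1, 189 in SU86.86 and 1796 in HPDE, on 1 of 2 probe sets. Among 17 receptor tyrosine kinases past the filter 2 were higher (11.8%) and 1 lower (5.88%), near the shares over all genes. FGFR1 had 1803 in PANC1, 378 in L3.6, 469 in HPAF1, 981 in SU86.86 and 239 in HPDE, where 2 of 6 probe sets were 2-fold higher and another 2 had the opposite sign. FGFR3 had 355 in PANC1, 371 in L3.6, 926 in HPAF1, 172 in SU86.86 and 1979 in HPDE, on 1 of 2 probe sets, the other giving -0.63. Of 8 oncofetal genes past the filter 2 were higher and 0 lower. LIN28B, a repressor of let-7 maturation, had 502 in PANC1, 21.5 in L3.6, 12.6 in HPAF1, 309 in SU86.86 and 23.6 in HPDE, present in PANC1 and SU86.86. HMGA2, a chromatin protein, had 5083 in PANC1, 343 in L3.6, 1571 in HPAF1, 7022 in SU86.86 and 1154 in HPDE, on 1 of 4 probe sets, the smallest difference being 0.21.

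Of 13 protease genes past the filter 3 were higher (23.1%) and 4 lower (30.8%). The urokinase PLAU had 4039 in PANC1, 2166 in L3.6, 4255 in HPAF1, 5444 in SU86.86 and 831 in HPDE. SERPINE2, which inhibits thrombin and urokinase, had 125 in PANC1, 4776 in L3.6, 5984 in HPAF1, 2234 in SU86.86 and 475 in HPDE and was PANC1-alone, with the widest gap to HPAF1. TIMP3, an inhibitor of metalloproteinases, had 116 in PANC1, 433 in L3.6, 124 in HPAF1, 203 in SU86.86 and 1014 in HPDE. Of 7 clade B serpins past the filter 0 were higher and 5 lower (71.4%), among them SERPINB3 (-2.73) and SERPINB8 (-2.32), whose second probe set gave -0.14. SERPINB5, also known as maspin, had 25.8 in PANC1, 2598 in L3.6, 6054 in HPAF1, 1972 in SU86.86 and 5476 in HPDE, at background in PANC1 (-5.84). Of 7 kallikreins 0 were higher and 2 lower (28.6%). KLK10 had 88.6 in PANC1, 258 in L3.6, 11306 in HPAF1, 65.7 in SU86.86 and 1013 in HPDE, with HPAF1 above every other line. Of 14 sterol synthesis genes 0 were higher and 2 lower (14.3%), HMGCS1 (-1.15) and SREBF2 (-1.03). A second probe set of HMGCS1 gave -0.43 and 1 of 3 of SREBF2 gave 0.094.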
